A study of Mus musculus with 7 samples.

Results

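The Igf1r domain was described here as all islands of the trimethylated histone mark H3K27me3 that overlapped chromosome 7 from 75000000 to 75450000 (mm9), the 450 kb window chosen to hold the Igf1r gene. An island is a stretch in which the authors found more sequencing reads than a random background would give. The window was chosen by where the islands of these same lists lay, that is, on their positions and width, so its cover is given as a description. It took in 14 of the 122262 islands in 7 lists, exactly 2 in each liver. The place of the gene in the window comes from that choice and was not checked against an mm9 annotation, since the gene table used here is of GRCm38. In the gene order of that table, Ttc23 and Synm come before Igf1r on chromosome 7, and Pgpep1l and Fam169b come after it. None of them was placed on the islands.

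H3K27me3 was mapped by chromatin immunoprecipitation and sequencing of frozen whole livers of 7-week-old wild-type male CD-1 (ICR) mice, an outbred stock. The groups were 4 livers of mice injected with TCPOBOP at 3 mg/kg and 3 livers of mice injected with vehicle, 1% DMSO in corn oil. All were taken 27 h after injection, and each list came from 1 liver. TCPOBOP is an agonist of the constitutive androstane receptor, CAR, which in hepatocytes switches on genes of drug metabolism and drives liver growth, and the comparison asked what it did to the mark. Whole liver holds several cell types, so a mark on fewer cells and less of the mark in each cell cannot be told apart. Defining markers of liver cell types were not checked, as no gene was placed on the islands.

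Igf1r encodes the type 1 insulin-like growth factor receptor, a tyrosine kinase at the cell surface that binds the ligands IGF1 and IGF2 and signals through insulin receptor substrates to growth and survival. Adult hepatocytes release most of the circulating IGF1 but express little of this receptor, and rely on the insulin receptor instead. H3K27me3 is deposited by Polycomb repressive complex 2, marks silent genes, and is commonly found in mammals at CpG-rich promoters of developmental genes.

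The promoter of Igf1r is printed to show how rich in CpG the start of the gene is. It spans chr7:67952007-67952306 on the plus strand of GRCm38.p6, 300 bases from RefSeq, with every CG in capitals. Those positions belong to GRCm38.p6 alone and were not set beside the mm9 islands.
Igf1r promoter: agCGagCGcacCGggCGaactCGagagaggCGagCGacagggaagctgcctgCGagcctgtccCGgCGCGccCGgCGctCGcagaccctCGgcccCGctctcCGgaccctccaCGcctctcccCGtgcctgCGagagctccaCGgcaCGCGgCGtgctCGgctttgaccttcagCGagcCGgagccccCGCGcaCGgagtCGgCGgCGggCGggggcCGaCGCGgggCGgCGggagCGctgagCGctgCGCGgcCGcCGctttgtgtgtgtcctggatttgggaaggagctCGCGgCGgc
It held 48 CG dinucleotides, which read the same on both strands, and 76% of its bases were G or C. Of 32851 promoter entries of that length in the RefSeq table, 400 (1.22%) held at least as many, and the median was 7.

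The domain had the same build in all 7 livers. A shorter island at the left and a far wider main island were parted by 1 break, and the main island ran on unbroken to the right edge. The main island started at 75050001, 75050401, 75050001 and 75051201 in TCPOBOP livers 1 to 4, and at 75050401, 75050001 and 75050401 in vehicle livers 1 to 3. These starts lay within 1.2 kb, or 3 windows of 400 bp, the unit in which islands were called, and the groups overlapped. Its right end fell at 75390400, 75394000, 75394800 and 75394400 in TCPOBOP livers and at 75388400, 75411600 and 75408000 in vehicle livers. Vehicle livers 2 and 3 thus had the 2 farthest ends and vehicle liver 1 the nearest, with all 4 TCPOBOP livers between them.

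**Figure D1:**
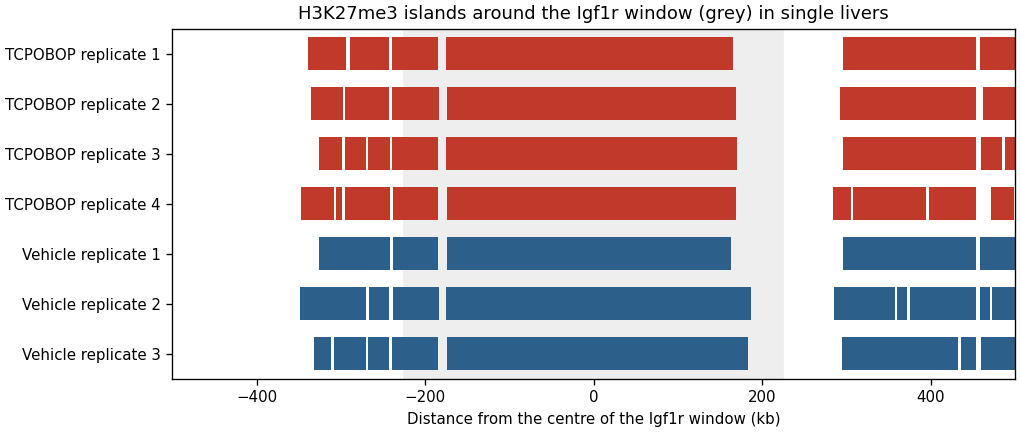
Islands within 500 kb of the centre of the Igf1r window (grey band) in each liver, TCPOBOP livers in red above vehicle livers in blue; the horizontal axis is distance from the centre in kb. Every liver shows a main island of 338 to 362 kb, a break of 8.4 to 11.2 kb at its left, and no island for at least 99.2 kb at its right.

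The left island varied less in width than the main one. It measured 54.8, 56.0, 54.4 and 53.6 kb in TCPOBOP livers and 54.4, 55.2 and 54.4 kb in vehicle livers. It began between 74985601 and 74986401 in every liver, left of the window, and 40.0 to 41.6 kb of it lay inside. The left edge of the whole domain therefore varied by 0.8 kb over 7 livers. That edge was no open border, since the next island to the left ended 2.8 to 3.6 kb away in TCPOBOP livers and 3.2 to 4.0 kb away in vehicle livers. The authors' program bridged gaps of up to 2.4 kb, so these gaps were only slightly longer than those it closed.

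The break between both islands measured 9.6, 8.8, 9.6 and 11.2 kb in TCPOBOP livers and 9.6, 8.4 and 10.0 kb in vehicle livers. It averaged 9.8 ± 1.01 kb (SD, n = 4) with TCPOBOP and 9.33 ± 0.833 kb (SD, n = 3) with vehicle. A stretch of 8.4 kb, from 75041601 to 75050000, was free of islands in all 7 livers. The groups differed by 0.467 kb, less than the SD of either group (95% interval -1.87 to 3.73 kb, two-sided exact permutation p = 0.686, adjusted 0.96).

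Cover of the window was 380.8, 385.2, 385.2 and 383.2 kb in TCPOBOP livers and 378.8, 403.2 and 398.0 kb in vehicle livers. The groups overlapped because vehicle liver 1 had the lowest cover of all. The means were 383.6 ± 2.09 kb (SD, n = 4), or 85.2 ± 0.465% of the window, with TCPOBOP and 393.3 ± 12.9 kb (SD, n = 3), or 87.4 ± 2.86%, with vehicle. The difference of -9.73 kb did not pass the test (95% interval -22.4 to 6.4 kb, two-sided exact permutation p = 0.229, adjusted 0.45). It was -17.0 kb without vehicle liver 1 (two-sided exact permutation p = 0.0667, the smallest that 4 against 2 livers allow). Vehicle livers 2 and 3 had the 2 highest covers of all, so that p was fixed once vehicle liver 1 was left out. Without vehicle liver 2 the difference was -4.80 kb (two-sided exact permutation p = 0.667). With the window cut by 50 kb at each end, and so ending short of the right edge of vehicle livers 2 and 3, it was -2.87 kb (two-sided exact permutation p = 0.457).

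The main island set that difference. It was 340.4, 343.6, 344.8 and 343.2 kb wide in TCPOBOP livers, and 338.0, 361.6 and 357.6 kb in vehicle livers. The mean width was 343.0 ± 1.86 kb (SD, n = 4) with TCPOBOP and 352.4 ± 12.6 kb (SD, n = 3) with vehicle, a difference of -9.4 kb (95% interval -21.2 to 6.8 kb, two-sided exact permutation p = 0.257, adjusted 0.45). Its right end, which is the right edge of the domain, differed by -9.27 kb (95% interval -21.2 to 6.4 kb, two-sided exact permutation p = 0.229, adjusted 0.45). The left edge differed by -0.367 kb (95% interval -1.07 to 0.8 kb, two-sided exact permutation p = 0.257, adjusted 0.45). The number of islands and of breaks was the same in every liver. These 7 measures formed the family over which p was adjusted, and 35 splits of the livers allow no p below 0.0286.

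**Figure D2:**
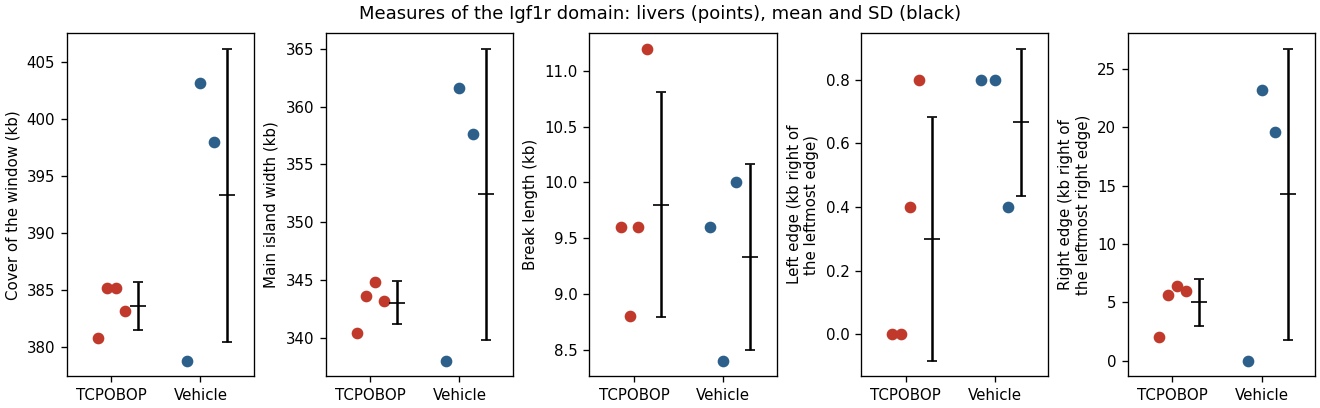
Cover of the window, width of the main island, length of the break, and left and right edge of the domain, all in kb, with 1 point per liver and the mean ± SD in black (4 TCPOBOP livers, 3 vehicle livers); edges are given from the leftmost one. The vehicle livers spread by 23.2 kb at the right edge and the TCPOBOP livers by 4.4 kb, while the left edge varied by 0.8 kb in all.

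Livers differed from each other mostly at the right edge. Of the 1125 windows of 400 bp, 943 (83.8%) were under an island in all 7 livers and 117 (10.4%) in none. The other 65 windows lay at the rims of the break and from 75388401 to 75411600. From 75394801 to 75408000, a stretch of 13.2 kb, islands were present in vehicle livers 2 and 3 and in no other liver. The further 3.6 kb to 75411600 was under an island in vehicle liver 2.

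No window told the groups apart completely. In the genome, of 2290273 windows under an island in at least 1 liver, 0.250% were found in every TCPOBOP liver and no vehicle liver, and 0.209% in every vehicle liver and no TCPOBOP liver. Of the 1008 such windows in the Igf1r domain, 0 fell in each class. At shares so low few of 1008 windows would do so, and the 0 does not set the domain apart from the genome. Without vehicle liver 1, 33 windows at the right edge were under an island in the 2 other vehicle livers and in no TCPOBOP liver. These were 3.27% of the windows under an island in the domain, against 0.575% over the genome with the same liver left out. They form 1 run at the end of 1 island, so they are not independent. Vehicle liver 1 had the nearest right edge, so the count without it follows from the ends given above. The shares are a description and no test. With any other liver left out, the count was 0.

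**Figure D3:**
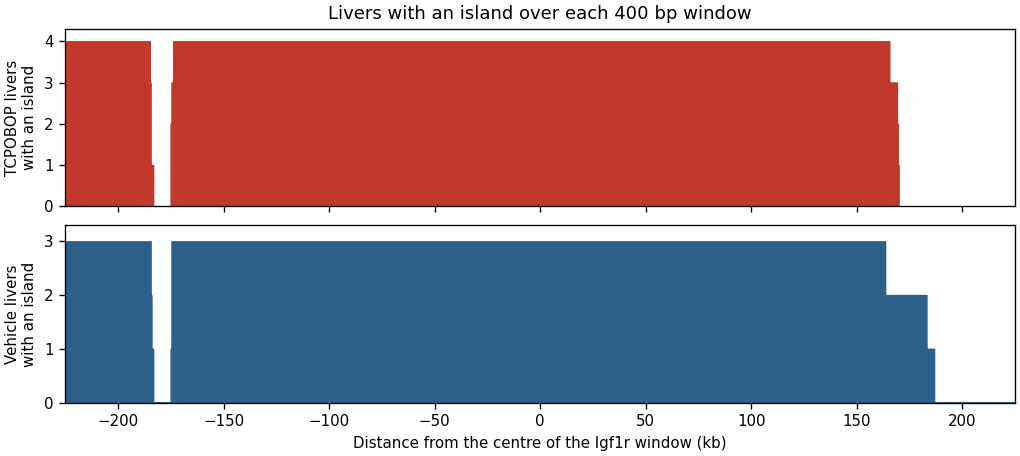
Number of TCPOBOP livers (top, of 4) and vehicle livers (bottom, of 3) with an island over each 400 bp window, against distance from the centre of the Igf1r window in kb. The livers of both groups share the break and the body of the domain, and part at the right edge, where 2 of 3 vehicle livers extend at least 13.2 kb beyond every TCPOBOP liver.

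Any pair of livers shared nearly the whole domain. The Jaccard index, the windows under islands in both livers divided by those under islands in either, ran from 0.939 to 0.995 over the 21 pairs. It averaged 0.980 for the 9 pairs of livers given the same injection and 0.966 for the 12 mixed pairs. The difference of 0.0141 did not pass the test (one-sided exact permutation p = 0.114). Leaving out 1 liver each gave differences of 0.00809 to 0.0335. The one-sided exact permutation p was 0.0667, the smallest possible, without any 1 vehicle liver, and 0.3 to 0.4 without any 1 TCPOBOP liver. The lowest index belonged to vehicle livers 1 and 2, a pair within a group. TCPOBOP liver 1 and vehicle liver 1 had an index of 0.993, above those of TCPOBOP liver 1 with the other TCPOBOP livers, which were 0.985 to 0.989.

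In the fit over the whole genome, the islands of all livers were merged into regions and the covered fraction of each was compared with limma. The SE given here is limma's moderated one. It draws the variance of a region toward that of other regions, so it differs from an SE taken from the SDs. The domain gave 2 merged regions. The main one, from 75050001 to 75411600, was 94.1, 95.02, 95.4 and 94.9% covered in TCPOBOP livers and 93.5, 100 and 98.9% in vehicle livers. The means were 94.9 ± 0.515% (SD, n = 4) with TCPOBOP and 97.5 ± 3.49% (SD, n = 3) with vehicle, a difference of -2.60 percentage points (SE 3.35, limma adjusted p = 1). The left one, from 74985601 to 75041600, was 97.7 ± 1.79% covered with TCPOBOP and 97.6 ± 0.825% with vehicle, a difference of 0.0595 points (SE 2.97, limma adjusted p = 1). Of 13988 regions tested, limma called 0 (0%), with 542 (3.87%) at an unadjusted p under 0.05 and a lowest limma adjusted p of 0.73. The median SE over these regions was 24.0 percentage points. Most regions could therefore be called only at a large difference, and the 0 does not show that the mark was unchanged. Limma called 13 regions without trend and robust variance, 4 without vehicle liver 1 and 6 without vehicle liver 3; the Igf1r regions were not among them (adjusted p = 0.977 to 1).

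Within its own list the main island ranked near the top by the authors' score, which sums over the windows of an island and grows with its width and with the depth of the library. The score was 5179, 6802, 5782 and 6289 in TCPOBOP livers and 5083, 6964 and 5983 in vehicle livers. It held rank 8, 11, 6 and 6 in lists of 20550, 16481, 18512 and 18399 islands from TCPOBOP livers, and rank 3, 12 and 7 in lists of 14167, 16301 and 17852 islands from vehicle livers. On chromosome 7 it had the highest score in each of the 7 lists. By width its rank was 9, 12, 12 and 7 in TCPOBOP livers and 16, 11 and 7 in vehicle livers. Scores and ranks were not compared between groups, since the lists differ in length and their read numbers are not given.

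Its score per window was also high, though less extreme than its width. It was 6.09, 7.92, 6.71 and 7.33 in TCPOBOP livers and 6.02, 7.70 and 6.69 in vehicle livers. Divided by the median of the same list, this came to 2.297 to 2.62 times with TCPOBOP and 2.35 to 2.55 times with vehicle. By score per window the island stood in the top 3.33, 5.00, 2.64 and 2.72% of its list in TCPOBOP livers and in the top 2.04, 6.45 and 3.08% in vehicle livers. Among the 94 to 188 islands of a list that were at least 0.5 times as wide, it ranked between 10 and 33.

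**Figure D4:**
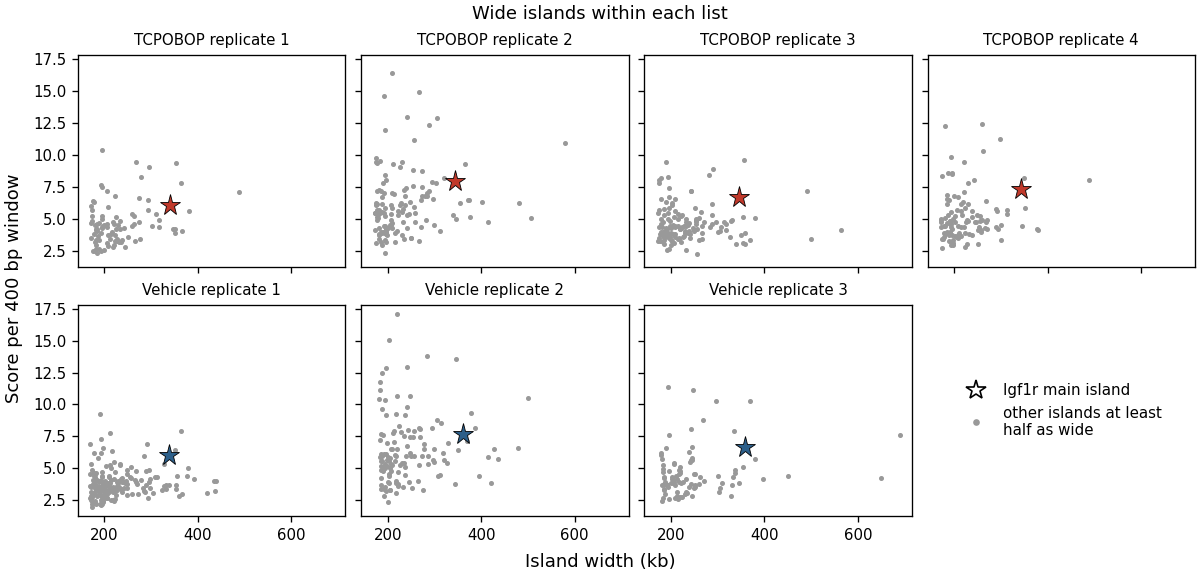
Score per 400 bp window against width in kb for islands at least 0.5 times as wide as the Igf1r main island, 1 panel per liver, with the Igf1r main island as a star (red in TCPOBOP livers, blue in vehicle livers) and other islands in grey. By score per window the star ranked 10 to 33 among the islands shown in a panel, and by width 7 to 16.

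The left island was less dense than the main one in every liver. Its score per window was 4.81, 5.24, 5.79 and 4.93 in TCPOBOP livers and 5.11, 6.01 and 4.97 in vehicle livers. The main island exceeded it by 1.16 to 1.51 times with TCPOBOP and by 1.18 to 1.35 times with vehicle. By total score the left island ranked between 1047 and 1545 in its list, within the top 5.44 to 9.37%.

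The main island ran far without a break in every liver. The stretch from 75051201 to 75388400, 337.2 kb, was under an island in all 7 livers, and it was the longest of 16958 such stretches in the genome, whose median was 11.6 kb. The next lay on chromosome 5 from 132700801 to 133021600 and measured 320.8 kb. After it came one on chromosome 19 from 44654001 to 44914800, of 260.8 kb. The order rests on single livers: without TCPOBOP liver 2, vehicle liver 1 or vehicle liver 2 another stretch, of 350.0, 382.8 or 339.6 kb, was longer. With islands up to 10 kb apart joined, the stretch kept its 337.2 kb and ranked 35. That rests on TCPOBOP liver 4, whose break of 11.2 kb was too long to be joined. In the other livers the joined island measured 488.8 to 534.8 kb. These ranks describe a domain chosen for its width and carry no test.

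Few merged regions of such size were whole. Merged regions with an island in all 7 livers and 180.8 to 723.2 kb long numbered 698, with a median of 4.14 islands per liver. The Igf1r main region was the 1 region of the 698 with a single island in every liver. A break shared by all 7 livers ends a merged region, so the break left of the main island is not counted here. The count thus holds for the main region, not for the whole domain, which was chosen for its width. In single livers, 3.01 to 6.30% of these regions had 1 island with TCPOBOP and 4.58 to 7.02% with vehicle. Without TCPOBOP liver 4 or without vehicle liver 3 the count was 2, the Igf1r region included. Among the 2029 regions of at least 100 kb it was 10.

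Its lowest cover in any liver was 93.5% of the region, against a median of 75.7% for the 698, and 27 regions were higher. The left edge of the main region varied by 1.2 kb between livers, against a median of 14 kb. A smaller range was found in 50 of the 698 regions and the same in 16. The right edge varied by 23.2 kb, against a median of 15.2 kb, and 448 regions varied less there.

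**Figure D5:**
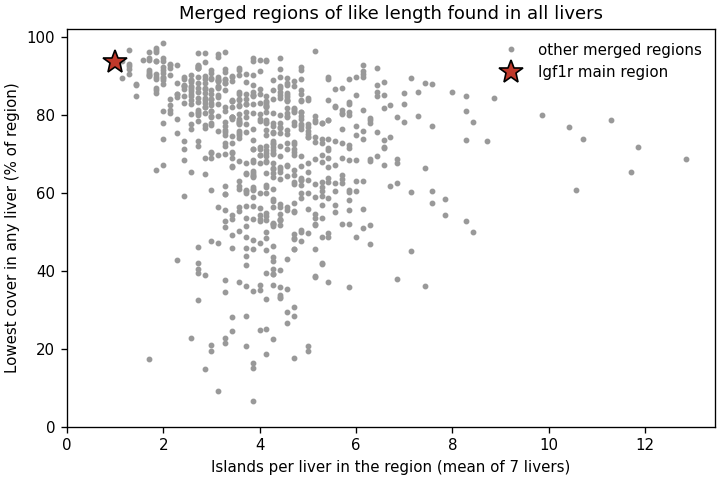
Lowest cover in any liver, in % of the region, against the mean number of islands per liver, for the 698 merged regions of 180.8 to 723.2 kb with an island in all 7 livers. The Igf1r main region (star) has 1 island per liver and a lowest cover of 93.5%.

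The regions whose covered fractions over the 7 livers were most like those of the Igf1r main region lay on chromosomes 4, 11, 4, 5 and 2. The closest, on chromosome 4 from 136162001 to 136542400, differed by 1.40 percentage points on average over the livers. It was 94.95 ± 0.905% covered with TCPOBOP (SD, n = 4) and 98.2 ± 1.23% with vehicle (SD, n = 3). Next in likeness came positions 81366401 to 81821200 of chromosome 11, positions 124803601 to 125344400 of chromosome 4, positions 120355601 to 120565600 of chromosome 5 and positions 164860801 to 165105200 of chromosome 2, with mean differences of 1.53 to 1.72 points. Each of these 5 had more than 1 island in at least 1 liver. They were picked for a like cover, so their difference between groups was not tested.

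The islands just outside the window were narrower than the main island in every liver. On the left, the next island ended between 74982000 and 74983200 and was 46.8, 52.0, 25.6 and 53.2 kb wide in TCPOBOP livers and 83.6, 24.4 and 24.4 kb in vehicle livers. On the right, 114.8 to 130 kb without an island followed in TCPOBOP livers and 99.2 to 132.0 kb in vehicle livers. The next island there began between 75509201 and 75520801. Its score per window was 2.98 to 4.11 with TCPOBOP and 3.44 to 4.25 with vehicle, below that of the main island in every liver. The next island on the left had 4.90 to 7.26 per window with TCPOBOP and 4.21 to 5.31 with vehicle. In TCPOBOP liver 1 its 6.096 lay above the 6.086 of the main island, and in the other livers it lay below. It exceeded the left island of the domain in TCPOBOP livers 1, 2 and 4 and in vehicle liver 1, but not in the others.

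The lists differed as wholes. They held 537.2 to 604.6 Mb in TCPOBOP livers and 537.2 to 586.8 Mb in vehicle livers, and the lowest score kept was 66.6 to 77.5 in TCPOBOP lists and 75.4 to 100.7 in vehicle lists. The lowest score was highest in vehicle liver 1, the liver with the nearest right edge and the fewest islands. The other livers did not keep to that order. Vehicle liver 3 had the next highest lowest score, 79.4, and a right edge at 75408000. TCPOBOP liver 1 had the smallest, 66.6, and the most islands, with a right edge at 75390400. The part of list depth in the position of the right edge was not tested. Read numbers are not given in the files used here.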

How the data were processed

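Each liver had 1 deposited list of H3K27me3 islands. The submitters' processing notes name the aligner Bowtie2 2.3.2, the island caller SICER 1.1 and build mm9. The file names give the SICER settings: windows of 400 bp, gaps up to 2400 bp bridged and an E-value of 100. The authors' score of an island is their own value and was used only within a list. Input, read filters and duplicates are not given in the sources used here, and the depth is unknown, so a missing island means only that the list had none.

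From start and end, cover, islands, breaks and edges were measured in the window. They were compared by two-sided exact permutation tests over 35 splits, with intervals from inverting the test and Benjamini-Hochberg adjustment over 7 measures. Merged regions with an island in at least 2 livers and unequal fractions were compared with limma 3.58.1 (R 4.3.3, trend and robust). Python 3.11.15, NumPy 2.4.6 and SciPy 1.17.1 were used. The code of the tests was checked on simulated data. For limma these were mid-range fractions with little noise and large shifts, unlike the real ones. The check therefore concerns the code, not the error rate or power in these data. Like regions were those with an island in all livers, 0.5 to 2 times the length, and the 5 smallest mean absolute differences in fraction were named. The window and all lists were chosen with earlier results of these data known. A list of genes of the insulin-like growth factor pathway and one of liver cell markers were not run, for want of an mm9 annotation here.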

Additional observations from a re-analysis of the deposited data

Results flagged for a closer look

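Among 26 quantities of the domain and its neighbours, 1 had a TCPOBOP liver far from the other 3, and chance puts about 1 in 20 there. The first island to the right of the domain was 20.8 kb wide in TCPOBOP liver 4, against 158.4 to 162.0 kb in the other TCPOBOP livers. In that liver further islands followed after short gaps.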

How the results depend on the processing

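Leaving out the islands in the lowest 25% of scores, or those of lowest score until the lists were equal in length, could not touch the domain, whose islands stood in the top 9.37% of their lists or higher, so these settings say nothing of stability. Leaving out 1 liver each gave differences of -17.0 to -4.80 kb in cover, -16.6 to -4.80 kb in main island width, -16.4 to -4.80 kb in the right edge, -0.533 to -0.267 kb in the left edge and 0 to 0.8 kb in break length. It gave -4.59 to -1.34 points in the main merged region, -0.714 to 0.714 points in the left one, 0 to 33 windows found in every vehicle liver alone (33 without vehicle liver 1, with 0.575% of windows over the genome in that setting), and 0 to 6 regions called by limma (4 without vehicle liver 1, 6 without vehicle liver 3). With 3 against 3 or 4 against 2 livers, p cannot go below 0.1 or 0.0667. Without vehicle liver 1, the two-sided exact permutation p of cover, main island width and right edge each stood at that limit of 0.0667. The vehicle livers left had the highest values of all 3 measures, so this outcome was fixed. The 3 measures share the same right end and are not separate results. With islands up to 10 kb apart joined, islands left of the domain were taken in too, and all became 1 island of 488.8 to 534.8 kb except in TCPOBOP liver 4, where the main island kept its 343.2 kb. Islands and breaks then each differed by 0.25, and the width by -50.9 kb, which rests on that liver. With the window widened by 100 kb the number of islands differed by 0.75, and with it cut by 50 kb every liver had 1 island and the cover differed by -2.87 kb. Taken from the main island alone, the left edge turned to 0.133 kb. Limma called 13 regions without trend and robust variance and 1 with islands in at least 1 liver.

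Deviations of same-numbered livers were weakly correlated over regions (0.0269, 0.278 and 0.0693 for livers numbered 1, 2 and 3). The livers numbered 2 were alone in matching best with each other. With the replicate block the cover differed by -9.60 kb and the break length by 0 (exact sign-flip test over 3 pairs, smallest p 0.25), and limma called 0 regions. The ranking of stretches and the count of whole regions under other settings were added after the data were examined. The cover of listed pathway genes was not run.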
